A study of Mus musculus with 6 samples.

Results

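Saa3, Slpi, F13a1 and Gdf3 encode secreted or cross-linking products of macrophages, and they were chosen by their counts, which were higher in PYK2 KO than in WT bone marrow-derived macrophages (BMDMs). The 4 genes are 4 of 55291 rows of the count table, and all 4 passed the filter on low counts that left 9815 genes. PYK2 is a non-receptor tyrosine kinase encoded by Ptk2b. BMDMs from 3 WT mice (libraries 1, 5 and 6) and 3 PYK2 KO mice (libraries 2, 3 and 4), both C57BL/6, were profiled by a bulk form of MARS-seq, which counts the 3′ ends of poly(A) RNA. Marrow cells of both genotypes were grown for 7 days with L929-conditioned medium as the source of M-CSF, without another stimulus named in the labels. The KO mice lacked PYK2 in every cell type and not only in macrophages, and each library is taken to be 1 mouse. The WT to PYK2 KO difference of the 4 genes is the value by which they were chosen, so it is given below as a description, and no test of it is used as support.

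SAA3 is the serum amyloid A protein that mice make mainly outside the liver, in macrophages, epithelia and fat, and it is a classical product of NF-κB and C/EBP activity during inflammation. SLPI, secretory leukocyte protease inhibitor, is a WAP-domain protein that blocks neutrophil elastase and cathepsin G and limits NF-κB signaling in macrophages. F13A1 is the catalytic A subunit of coagulation factor XIII, a transglutaminase that cross-links fibrin, and macrophages and megakaryocytes are its main sources. GDF3 is a TGF-β superfamily ligand that signals through activin receptors with ALK4 or ALK7, and in macrophages its transcription is known to depend on PPARγ and RXR.

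Total counts per library were 2857097 to 3917207, and over the 9815 tested genes the log2 fold change had a median of 0.0017. Levels are given as CPM, which puts the count of a gene on a common library size, with libraries scaled by the TMM method. Ptk2b was 194 ± 5.62 CPM in WT against 21.7 ± 1.14 CPM in PYK2 KO BMDMs (mean ± SD, n = 3 each), which fits the labels. At an adjusted p under 0.05 (edgeR's quasi-likelihood test, Benjamini-Hochberg), 0.255% of the tested genes were called, 11 as higher in PYK2 KO (0.112%) and 14 as lower (0.143%), and 6.02% had an unadjusted p under 0.05. Macrophage markers (Adgre1, Csf1r, Cd68 and 6 others) summed to 29134 to 29857 CPM in WT libraries, against 30298 to 31285 CPM in PYK2 KO. Most of this sum was Lyz2, whose mean went from 23953 to 25265 CPM with the knockout (log2 fold change 0.08). The markers were divided in direction, 5 higher and 4 lower, with Adgre1 (-0.09), Csf1r (-0.05) and Cd68 (-0.02) among the lower ones. Of the 9 markers 0 passed, with 0 at an unadjusted p under 0.05. After genotype was removed, 31.1% of the variance lay on 1 axis. Residuals of 3 libraries a genotype span few dimensions, so the first axis holds a sizeable share in any data. On that axis WT 1 and PYK2 KO 4 had scores of 14.97 and 14.1, and WT 6 and PYK2 KO 2 of -12.6 and -13.6. In bulk RNA, fewer cells of a type and less RNA per cell cannot be told apart.

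**Figure D1:**
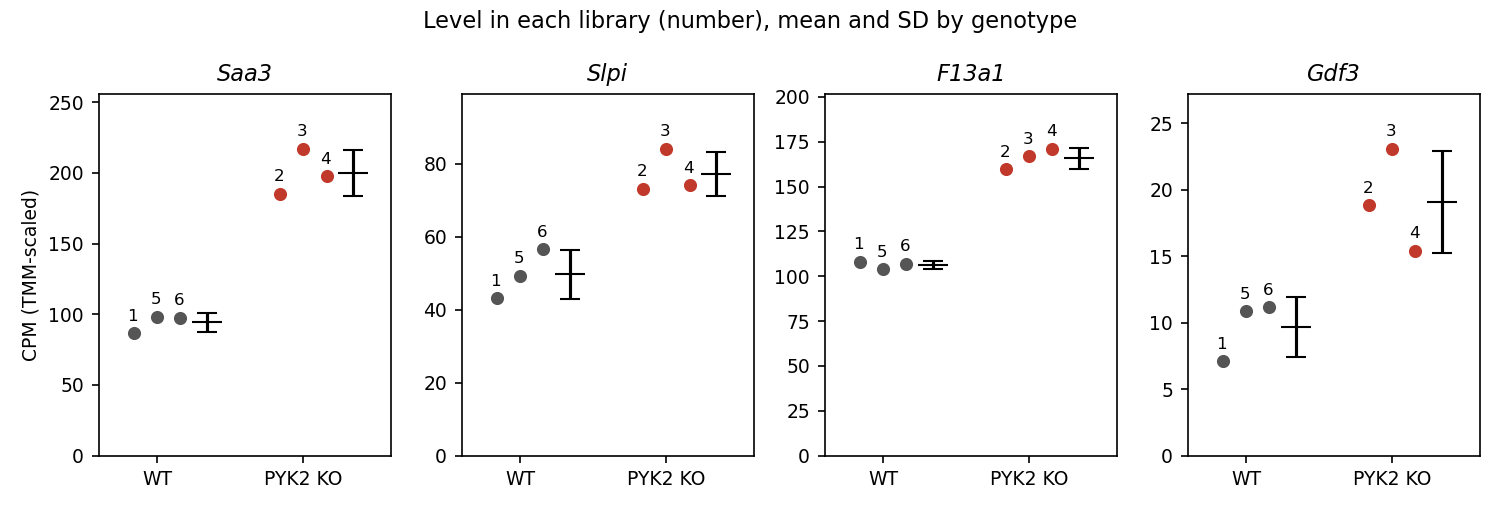
Level of each gene in CPM (TMM-scaled, linear axis from 0) in each of the 6 libraries, with the library number above the point and the mean ± SD of the 3 libraries of a genotype beside them. For each of the 4 genes the lowest PYK2 KO library lies above the highest WT library, with the widest relative gap for Saa3.

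Saa3 (ENSMUSG00000040026.8) lies on the minus strand of mouse chromosome 7, at 46711998 to 46715700 in GRCm38 (mm10), and its principal transcript has 4 exons and 555 bases. It was counted 341, 353 and 280 times in WT libraries 1, 5 and 6 and 581, 630 and 666 times in PYK2 KO libraries 2, 3 and 4. Scaled for depth, these are 86.7, 98.4 and 97.7 CPM in WT and 185, 217 and 198 CPM in PYK2 KO. The genotypes did not overlap, and the lowest PYK2 KO library was 1.89 times the highest WT library. The means were 94.2 ± 6.56 and 200.1 ± 15.99 CPM, a 2.12-fold difference with a log2 fold change of 1.09 (SE 0.09). The coefficient of variation was 6.96% in WT and 7.99% in PYK2 KO, where counting error alone would give 5.55% and 4.00%.

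Slpi (ENSMUSG00000017002.14) lies on the minus strand of chromosome 2, at 164354070 to 164389095, with 4 exons in its principal transcript. Its counts were 170, 177 and 162 in WT and 229, 244 and 250 in PYK2 KO. The scaled levels were 43.2, 49.3 and 56.5 CPM in WT libraries 1, 5 and 6 and 73.1, 84.1 and 74.1 CPM in PYK2 KO libraries 2, 3 and 4. WT 6 was the closest WT library to the PYK2 KO range, which began 1.29 times above it. The means were 49.7 ± 6.66 and 77.1 ± 6.07 CPM, a 1.55-fold difference with a log2 fold change of 0.64 (SE 0.11). Slpi varied more among WT libraries (13.4%) than counting error gives (7.68%), and less so among PYK2 KO libraries (7.87% against 6.44%).

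F13a1 (ENSMUSG00000039109.16) spans 36867178 to 37050244 on the minus strand of chromosome 13, with 15 exons in its principal transcript. It was counted 425, 373 and 307 times in WT and 500, 484 and 577 times in PYK2 KO. At 108, 104 and 107 CPM in WT and 159.6, 167 and 171 CPM in PYK2 KO, it had the tightest replicates of the 4 genes. The means were 106 ± 2.14 and 166 ± 5.81 CPM, a 1.56-fold difference with a log2 fold change of 0.64 (SE 0.08), and the lowest PYK2 KO library was 1.48 times the highest WT library. Its coefficients of variation, 2.01% and 3.51%, were below the 5.21% and 4.38% expected from counting.

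Gdf3 (ENSMUSG00000030117.5) lies at 122605403 to 122610087 on the minus strand of chromosome 6 and has 2 exons. With 28, 39 and 32 counts in WT and 59, 67 and 52 in PYK2 KO, it rests on the fewest reads of the 4. The scaled levels were 7.12, 10.9 and 11.2 CPM in WT libraries 1, 5 and 6 and 18.8, 23.1 and 15.4 CPM in PYK2 KO libraries 2, 3 and 4. The genotypes did not overlap, but the 95% Poisson interval of the count in WT 5 reached 53.3 and that in PYK2 KO 4 began at 38.8, before scaling for depth and for counting error only. The means were 9.71 ± 2.26 and 19.1 ± 3.84 CPM, a 1.97-fold difference with a log2 fold change of 0.99 (SE 0.22).

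Saa3 and Gdf3 thus differed about 2-fold between genotypes and Slpi and F13a1 about 1.6-fold, on 974, 99, 509 and 1105 counts in WT and 1877, 178, 723 and 1561 in PYK2 KO. At an adjusted p under 0.05, 3 of the 4 genes (Saa3, Slpi and F13a1, not Gdf3) were among the called genes, where 0.112% of all tested genes were called as higher in PYK2 KO. All 4 had non-overlapping genotypes, as did 5.17% of tested genes in that direction. The count called was 2 of 4 when any single library other than WT 6 was left out, since Slpi was then not called, and 4 of 4, with Gdf3, with no filter, in the likelihood ratio test and with the first residual component as a covariate. The same contrast chose the genes, so nothing is read from these counts.

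**Figure D2:**
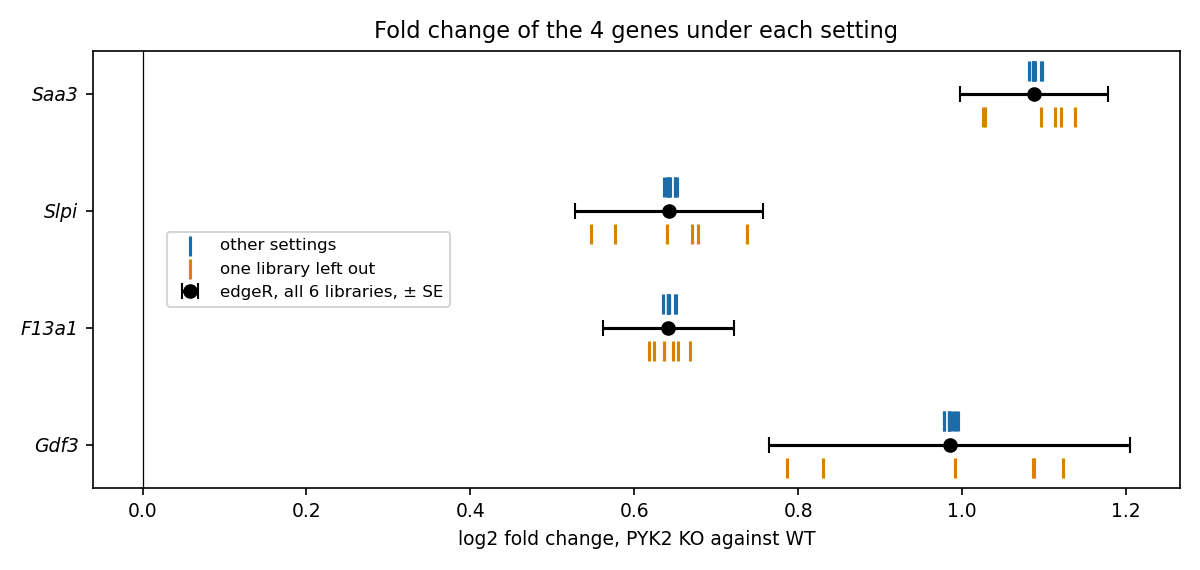
Log2 fold change of PYK2 KO against WT for each gene: the black point and bar give the edgeR estimate ± SE from all 6 libraries, blue ticks the other scalings, filters and tools, and orange ticks the 6 fits that each leave out a library. All values are above 0, and leaving out a library moved Gdf3 between 0.79 and 1.12 and Saa3 between 1.03 and 1.14.

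The 250 bases before the annotated start are shown for the genes with a window in the RefSeq table of GRCm38.p6, which held 3 of the 4, because Saa3 and Slpi are known targets of inflammatory transcription factors. All windows are on the minus strand and read 5′ to 3′, and F13a1 has 2 annotated starts. Capitals mark matches, on either strand, to 7 motifs searched, which were the degenerate 10-base NF-κB consensus, C/EBP (TTGCNNAA), AP-1 (TGANTCA), STAT (TTCNNNGAA), PU.1 (GAGGAA) and the TATA box, read as TATAAA and, in a separate search that can overlap itself, as TATATA.
Saa3, chr7:46715677-46715926: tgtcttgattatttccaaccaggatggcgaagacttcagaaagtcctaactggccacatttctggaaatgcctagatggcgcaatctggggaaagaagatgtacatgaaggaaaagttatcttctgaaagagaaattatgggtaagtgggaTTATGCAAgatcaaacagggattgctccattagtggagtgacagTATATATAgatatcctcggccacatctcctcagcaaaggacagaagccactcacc
Slpi, chr2:164356508-164356757: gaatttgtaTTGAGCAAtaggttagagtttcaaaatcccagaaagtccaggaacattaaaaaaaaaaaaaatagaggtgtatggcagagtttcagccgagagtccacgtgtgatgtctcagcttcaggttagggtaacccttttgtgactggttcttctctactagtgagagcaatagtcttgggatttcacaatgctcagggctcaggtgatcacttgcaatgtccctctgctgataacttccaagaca
F13a1, distal start, chr13:37050245-37050494: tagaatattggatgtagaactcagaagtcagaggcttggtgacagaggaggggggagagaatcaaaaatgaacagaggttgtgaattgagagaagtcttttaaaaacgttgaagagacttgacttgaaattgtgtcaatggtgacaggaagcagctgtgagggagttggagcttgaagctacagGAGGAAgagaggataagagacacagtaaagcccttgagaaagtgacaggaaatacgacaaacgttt
F13a1, start of the principal transcript, chr13:37049214-37049463: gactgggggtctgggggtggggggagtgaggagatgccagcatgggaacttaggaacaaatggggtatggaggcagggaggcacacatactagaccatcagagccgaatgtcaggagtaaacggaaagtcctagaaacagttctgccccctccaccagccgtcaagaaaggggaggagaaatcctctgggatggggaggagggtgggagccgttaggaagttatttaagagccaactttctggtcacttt
The Saa3 window held the C/EBP letters TTATGCAA 99 to 92 bases before the start and overlapping TATATA matches 55 to 48 bases before it. These distances are from the RefSeq start, which lies inside the GENCODE gene given above, so that the last 24 bases of the window overlap that gene and the distances to the start of that gene are 24 bases shorter. The Slpi window held C/EBP letters, TTGAGCAA, 241 to 234 bases before the start. All 250 bases of this window, and of that of the principal F13a1 transcript, lie inside the GENCODE gene as given above, which begins further upstream. The distal F13a1 window held PU.1 letters 66 to 61 bases before the start, and the window of the principal F13a1 transcript held a match to 0 of the 7 motifs. Of 32851 RefSeq windows of the same length, 9.56% held the C/EBP letters, 5.25% TATATA, 12.4% TATAAA, 23.3% the PU.1 letters, 7.02% the STAT letters, 6.75% the AP-1 letters and 7.25% the NF-κB consensus. A match describes the letters of the window and is not a binding site shown by these data.

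The 4 transcripts share little sequence with other genes. Of the 50-base words in the Saa3 transcript, 9 of 506 are shared with another gene, Saa1, and Saa1, Saa2 and Saa4 had 0 counts in every library. In the last 1000 bases of the transcripts, F13a1 shared 0 of 951 words with another gene and Gdf3 42 of 951, spread over 50 other genes, while the Slpi transcript shared 0 of 827. F13a1 overlaps the antisense genes Gm49144 and Gm30489 and Slpi the microRNA gene Mir7678, and all had 0 counts in every library. The 4 genes lie on different chromosomes from each other and from Ptk2b, which is on chromosome 14. Among the tested genes within 1 Mb of Saa3 (17), Slpi (28), F13a1 (8) and Gdf3 (12), 0 passed the adjusted threshold of edgeR's test, with 0, 1, 1 and 3 at an unadjusted p under 0.05.

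Across the 6 libraries, Pearson's r of log2 CPM between pairs of the 4 genes ranged from 0.85 for F13a1 with Gdf3 to 0.98 for Saa3 with F13a1. These values are set by the genotype difference by which the genes were chosen, and the libraries also share depth and preparation, so they are a description (n = 6). Within a genotype, Saa3, Slpi and Gdf3 were each lowest in WT 1 among the WT libraries and highest in PYK2 KO 3 among the PYK2 KO libraries. F13a1 was lowest in WT 5 and highest in PYK2 KO 4, but its spread within a genotype was below counting error, so that the order of its libraries cannot be told from that error. Of the 6 pairs of libraries of the same genotype, Slpi moved in the same direction as Saa3 in 5 and as Gdf3 in 5, and Saa3 as Gdf3 in 4. F13a1 moved in the same direction as Saa3 in 2, as Gdf3 in 2 and as Slpi in 3. The 3 pairs of a genotype share libraries, no test was made of this, and the F13a1 counts do not set it apart from the other 3 genes.

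**Figure D3:**
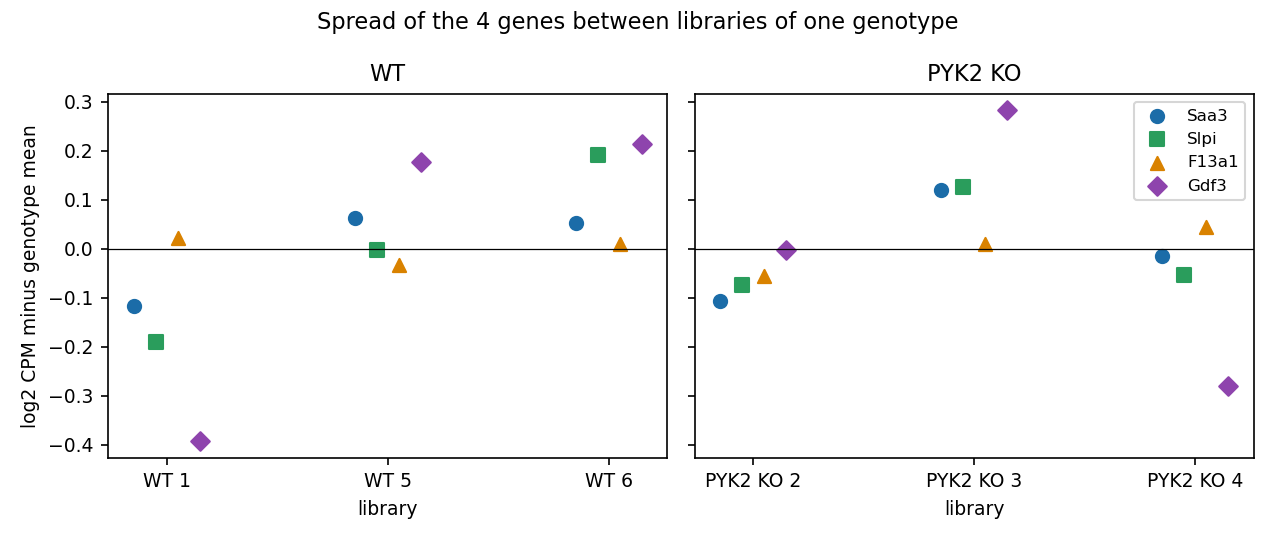
Log2 CPM of each gene in each library minus its mean over the 3 libraries of the same genotype. Saa3, Slpi and Gdf3 share the lowest WT library (WT 1) and the highest PYK2 KO library (PYK2 KO 3), while F13a1 lies between -0.055 and 0.046 in every library.

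Ratios of counts within a library, in which the scaling cancels, showed a larger genotype difference for Saa3 than for F13a1 and Slpi. The ratio of Saa3 to F13a1 counts was 0.80, 0.95 and 0.91 in WT libraries and 1.16, 1.30 and 1.15 in PYK2 KO libraries. The ratio of Saa3 to Slpi counts was 2.01, 1.99 and 1.73 in WT and 2.54, 2.58 and 2.66 in PYK2 KO. Neither ratio overlapped between genotypes, and how often ratios of other genes fail to overlap was not counted. The ratio of Slpi to F13a1 counts was the same within its spread, 0.467 ± 0.064 in WT and 0.465 ± 0.036 in PYK2 KO. The ratios of Gdf3 to each of the other genes overlapped between genotypes. These ratios compare each gene with another across libraries and say nothing of which transcript was more abundant.

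The genes whose levels followed each member most closely were taken as the 3 tested genes with the highest Pearson's r of log2 CPM over the 6 libraries. Such a match includes the genotype difference, and 75 to 83 tested genes had an r above 0.9 with each member. For Saa3 they were the chemokine gene Ccl6, the predicted gene Gm4950 and the lysozyme gene Lyz1, all with r = 0.99. Gm4950 was low, at 2.50 ± 0.051 CPM in WT against 4.47 ± 0.34 CPM in PYK2 KO, so its r rests on few counts. It did not pass (adjusted p = 0.705, edgeR). Lyz1 was 20.2 ± 1.49 CPM in WT against 30.5 ± 1.82 CPM in PYK2 KO BMDMs (adjusted p = 0.164, edgeR). For F13a1 they were Ide, Ccl6 and Gm4950, also with r = 0.99. Ide, which encodes insulin-degrading enzyme, rose from 39.5 ± 2.21 to 87.8 ± 5.54 CPM (log2 fold change 1.15, adjusted p = 1.42e-05, edgeR's quasi-likelihood test). For Slpi they were Ly6c2, a surface marker of inflammatory monocytes, Spc24, a kinetochore subunit, and Nfe2, a transcription factor of blood cell precursors, with r = 0.98. Ly6c2 was 8.65 ± 1.80 CPM in WT against 13.3 ± 0.72 CPM in PYK2 KO and did not pass (adjusted p = 0.59, edgeR). For Gdf3 they were Fam57a, Spc24 and Stat5a, with r = 0.99 and log2 fold changes of 0.37, 0.21 and 0.19, none of which passed.

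**Figure D4:**
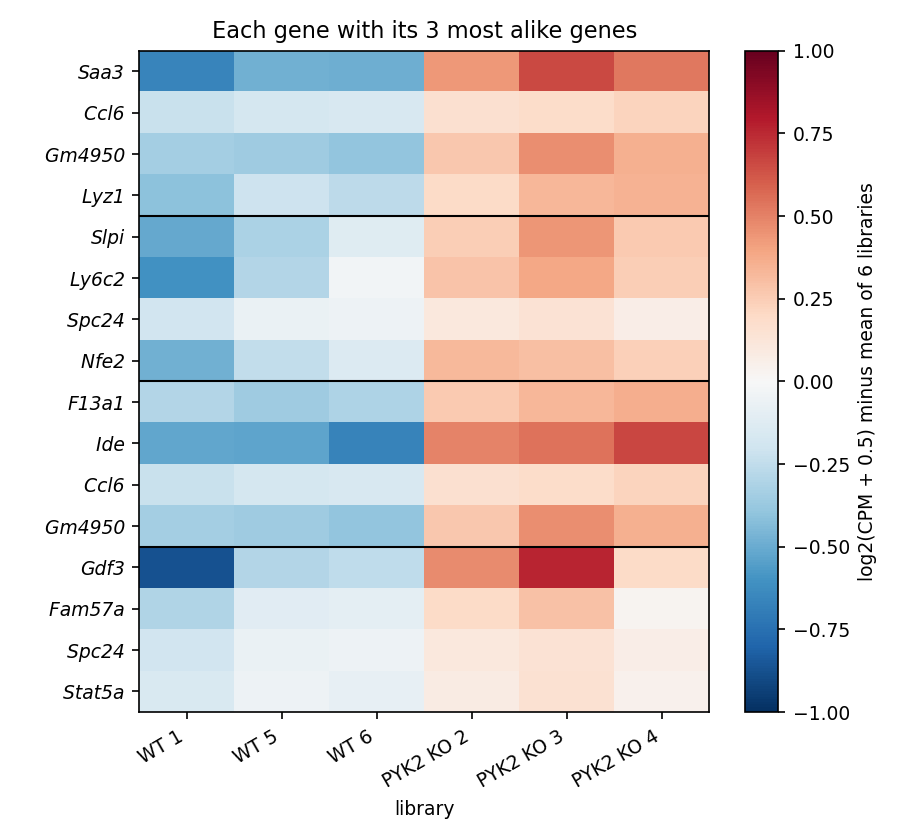
Color gives log2(CPM + 0.5) minus the mean of the 6 libraries (blue below, red above) for each member, first in its block, and the 3 tested genes most alike to it, with the libraries in columns. Gdf3 has its lowest level in WT 1 and its highest in PYK2 KO 3, and Fam57a, Spc24 and Stat5a, picked for their likeness, show the same extremes over a smaller range.

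Of the receptors reported for serum amyloid A proteins, 7 were tested, with 4 higher and 3 lower and a median log2 fold change of 0.05, and 0 passed in edgeR, with 1 at an unadjusted p under 0.05. Tlr2 was 98.0 ± 6.07 CPM in WT against 101 ± 6.37 CPM in PYK2 KO, with a log2 fold change of 0.05 and a 95% interval of -0.15 to 0.24. Tlr4 (0.35, SE 0.23) and Scarb1 (-0.01, SE 0.08) did not pass either. The gene at an unadjusted p under 0.05 was Cd36, a scavenger receptor for lipids, named after its value was seen. It was counted 106, 55 and 30 times in WT libraries 1, 5 and 6 and 57, 91 and 138 times in PYK2 KO libraries 2, 3 and 4, so its genotypes overlapped (log2 fold change 0.74, adjusted p = 0.697, edgeR).

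Other acute phase and inflammatory transcripts of macrophages were divided in direction. Of 25 listed, 16 were tested, 8 were higher and 8 lower, the median log2 fold change was -0.01, and 0 passed in edgeR, with 2 at an unadjusted p under 0.05. These 2 were Hp, the hemoglobin-binding haptoglobin, and Acod1, which makes itaconate. Hp was 21.5 ± 3.03 CPM in WT against 34.4 ± 6.62 CPM in PYK2 KO without overlap (log2 fold change 0.67, SE 0.16, adjusted p = 0.215), and Acod1 was 51.5 ± 14.9 and 76.8 ± 14.1 CPM with overlap (0.59, SE 0.17, adjusted p = 0.40). Lcn2, the siderophore-binding lipocalin often induced with Saa3, had a log2 fold change of -0.10 (SE 0.17), and complement C3 of 0.20 (SE 0.10). Il6 had 0 counts in every library.

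The listed regulators of acute phase genes were NF-κB, C/EBP and STAT3 factors with Jun, Fos, Sp1 and the kinase genes Chuk, Ikbkb and Ikbkg. All were measured, 16 of 16. Of these 7 were higher and 9 lower, the median log2 fold change was -0.07, and 0 passed in edgeR, with 1 (Fos) at an unadjusted p under 0.05. Nfkb1 had a log2 fold change of 0.04 (SE 0.10), Nfkb2 of -0.18 (SE 0.09) and Rela of -0.09 (SE 0.09). The Fos value of -1.29 rested on WT 6, with 293 counts against 84 and 95 in WT 1 and WT 5 and 42 to 95 in PYK2 KO, and it was -0.28 without that library.

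The WAP family was represented by Wfdc17 and Wfdc21 beside Slpi, and 8 of its 14 listed genes had 0 counts. The median log2 fold change of both was 0.09, and 0 passed in edgeR, with 1 (Wfdc17) at an unadjusted p under 0.05. Wfdc17 was counted 601, 561 and 440 times in WT and 662, 378 and 938 times in PYK2 KO, so the PYK2 KO libraries lay on both sides of WT (log2 fold change 0.43, adjusted p = 0.724, edgeR). Wfdc21 had 11 to 20 counts per library and a log2 fold change of -0.24 (SE 0.29), and Wfdc18 had 1 to 4 counts and was not tested. Of granule and pancreatic serine proteases, among them the SLPI targets elastase and cathepsin G, only Ctsg (cathepsin G) and Prtn3 (proteinase 3, which is not a main SLPI target) were tested. Prtn3 was 16.4 ± 0.93 CPM in WT against 23.6 ± 4.68 CPM in PYK2 KO without overlap, and did not pass (log2 fold change 0.53, SE 0.17, adjusted p = 0.582, edgeR). Ctsg had 7, 8 and 8 counts in WT and 10, 9 and 17 in PYK2 KO, with no overlap in CPM (log2 fold change 0.77, SE 0.38, adjusted p = 0.854). Both were thus higher, with a median of 0.65, and 0 passed, with 1 (Prtn3) at an unadjusted p under 0.05, while Elane had 5 to 12 counts per library. Of 7 other protease inhibitors tested, 3 were higher and 4 lower, the median was -0.05 and 0 passed, with 1 (Cst7) at an unadjusted p under 0.05. The cysteine protease inhibitors Cst3 (0.03, SE 0.09), Cst7 (0.38, SE 0.16) and Cstb (-0.05, SE 0.07) were among them.

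Beside F13a1, Tgm2 was the only transglutaminase gene tested. Tgm2, tissue transglutaminase, was 133 ± 15.2 CPM in WT against 132 ± 8.14 CPM in PYK2 KO, with a log2 fold change of -0.01, a 95% interval of -0.21 to 0.19 and a sign that turned with the scaling. The factor XIII B subunit gene F13b and 5 of the other family members had 0 counts in every library. Of 16 genes for known substrates of factor XIIIa, 5 were tested and 1 passed, with a list median of 0.02. Spp1, which encodes osteopontin, rose from 3377 ± 493 to 4604 ± 23.6 CPM (log2 fold change 0.45, SE 0.09, adjusted p = 0.0428, edgeR's quasi-likelihood test). It lost its call when any library other than WT 6 was left out, and its log2 fold change then lay between 0.38 and 0.45. Thrombospondin 1 (Thbs1) had a log2 fold change of 0.37 (SE 0.16, adjusted p = 0.784) and vimentin (Vim) of 0.02 (SE 0.07), while the fibrinogen genes Fga, Fgb and Fgg, whose products are the main substrate, had 0 counts.

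Of the coagulation and fibrinolysis genes of macrophages, 14 of 24 were tested, 9 were higher and 5 lower, the median log2 fold change was 0.03, and 0 passed in edgeR, with 5 at an unadjusted p under 0.05. The 5, which include genes named after their values were seen, were F7, F10, Tfpi, Enpp1 and Procr. F10, coagulation factor X, was 38.4 ± 2.79 CPM in WT against 54.9 ± 6.13 CPM in PYK2 KO without overlap (log2 fold change 0.51, SE 0.12, adjusted p = 0.164, edgeR). F7, coagulation factor VII, was 87.8 ± 6.74 and 105 ± 10.5 CPM (0.26, SE 0.10). Tfpi, the inhibitor of the tissue factor pathway, had 18, 7 and 7 counts in WT and 21, 21 and 33 in PYK2 KO (1.37, SE 0.34, adjusted p = 0.214). Procr, the endothelial protein C receptor, lay the other way, at 45.2 ± 5.97 and 31.8 ± 5.50 CPM (-0.50, SE 0.15, adjusted p = 0.457). Thrombomodulin (Thbd) had a log2 fold change of 0.21 (SE 0.21).

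Of 28 TGF-β superfamily ligands and binding proteins, Gdf3 included, 13 had 0 counts and 4 besides Gdf3 were tested. Tgfb1 was 451 ± 37.0 CPM in WT against 457 ± 32.9 CPM in PYK2 KO (log2 fold change 0.02, 95% interval -0.17 to 0.21). Gdf15 had a log2 fold change of -0.20 (SE 0.14), Lefty1 of 0.09 (SE 0.40) and Ltbp3, which binds latent TGF-β, of 0.12 (SE 0.16), so that the median of the 4 was 0.05 and 0 passed in edgeR, with 0 at an unadjusted p under 0.05. Gdf9, Inhba, Fstl1 and Fstl3 had 1 to 13 counts per library and were not tested. Of 16 tested receptors and SMAD factors 8 were higher and 8 lower, with a median of -0.01, and 0 passed, with 2 (Tgfbr1 and Smad5) at an unadjusted p under 0.05. Acvr1b, which encodes ALK4, was 41.1 ± 5.25 CPM in WT against 34.6 ± 2.52 CPM in PYK2 KO (-0.25, SE 0.13), Acvr2b was 5.79 ± 1.73 and 7.01 ± 0.11 CPM (0.24, SE 0.27) and Acvr1 had a log2 fold change of -0.16 (SE 0.17). Acvr1c, which encodes ALK7, and the co-receptor gene Tdgf1 had 0 counts. Of 9 tested TGF-β and BMP target genes 4 were higher and 5 lower, the median was -0.07 and 0 passed, with 0 at an unadjusted p under 0.05. Among them Smad7 had a log2 fold change of -0.21 (SE 0.29), Skil of -0.07 (SE 0.23) and Id1 of -0.93 (SE 0.45). The Id1 value rested on WT 6, with 49 counts against 15 and 22 in WT 1 and WT 5 and 13 to 16 in PYK2 KO, and it was -0.14 without that library, while Smad7 lay between -0.42 and -0.06 with a library left out.

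The nuclear receptor genes known to act on Gdf3 did not differ detectably. Pparg was 19.7 ± 5.30 CPM in WT against 17.5 ± 1.58 CPM in PYK2 KO, with a log2 fold change of -0.19 and a 95% interval of -0.61 to 0.22. Rxra and Rxrb both had a log2 fold change of -0.07 (SE 0.09 and 0.10). Of 18 tested genes of PPARG, RXR, LXR and their targets, 8 were higher and 10 lower, the median was -0.02 and 0 passed in edgeR, with 2 (Cd36 and Scd1) at an unadjusted p under 0.05. F13a1 is also known to be raised by IL-4. The other tested genes listed for IL-4 were 10, with the receptor gene Il4ra and the downstream effector gene Stat6 among them. Of these 4 were higher and 6 lower, with a median of -0.03, 0 that passed and 1 at an unadjusted p under 0.05. It was Stat6, which was lower in PYK2 KO (log2 fold change -0.24, SE 0.08, adjusted p = 0.582, edgeR). Mrc1 had a log2 fold change of 0.25 (SE 0.15), Chil3 of 0.20 (SE 0.24) and Clec7a of 0.47 (SE 0.27). With a library left out Mrc1 lay between 0.058 (without PYK2 KO 4) and 0.44 (without WT 1), and Clec7a between 0.27 (without WT 5) and 0.93 (without WT 1). Retnla and Ccl17 had 0 counts in every library.

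Among 47 other secreted macrophage products tested, 18 were higher and 29 lower in PYK2 KO, with a median log2 fold change of -0.05. At an adjusted p under 0.05, 2 rose and 1 fell, and 10 were at an unadjusted p under 0.05, 6 of them higher. Besides Spp1, Ccl6, a CC chemokine gene, rose from 620.4 ± 14.6 to 806 ± 18.6 CPM (log2 fold change 0.38, SE 0.07, adjusted p = 0.0489, edgeR's quasi-likelihood test). Mfge8, whose product bridges apoptotic cells to phagocytes, fell from 299 ± 5.79 to 207 ± 29.3 CPM (log2 fold change -0.53, SE 0.10, adjusted p = 0.0274). Ccl6 lost its call in each of the 6 fits with a library left out, and Mfge8 in 4 of them (without WT 5, WT 6, PYK2 KO 3 or PYK2 KO 4). For each list with 0 genes passing, DESeq2 and limma voom also gave 0.

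**Figure D5:**
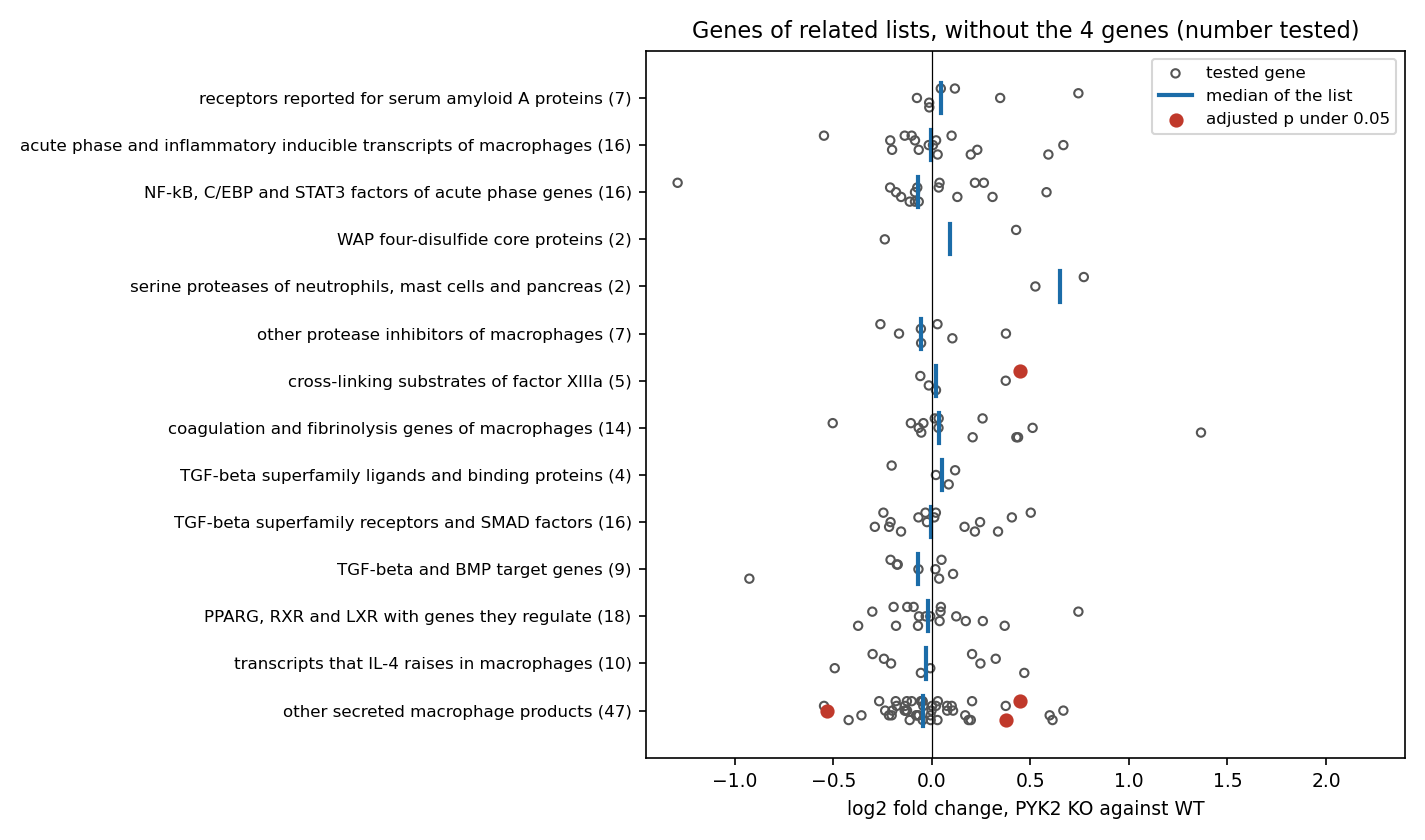
Log2 fold change of PYK2 KO against WT for every tested gene of 14 related lists, without the 4 genes, with the number tested in parentheses. Open circles are genes, blue bars list medians and red points the genes past the adjusted threshold of 0.05: Spp1 (in 2 lists), Ccl6 and Mfge8.

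Markers of other cell types that are known to make these products were read beside them. Markers of neutrophil precursors, which carry Slpi, summed to 304 to 410 CPM in WT against 335 to 542 CPM in PYK2 KO, which overlapped. Of 12, 11 were above 3 counts in some library and 8 were tested, 5 higher and 3 lower, with a median log2 fold change of 0.14, 0 that passed in edgeR and 3 at an unadjusted p under 0.05. These 3 were S100a9 (0.85, SE 0.27), Mpo (1.19, SE 0.40) and Mmp8 (0.44, SE 0.15), and S100a9 was counted 277, 107 and 97 times in WT and 158, 269 and 346 times in PYK2 KO. With a library left out S100a9 lay between 0.62 (without WT 5) and 1.37 (without WT 1), and Mmp8 between 0.22 (without PYK2 KO 4) and 0.61 (without PYK2 KO 2). The 3 lower markers were Camp (-0.26, SE 0.28), Csf3r (-0.15, SE 0.13) and Ltf (-0.09, SE 0.19). S100a8, its partner, had a log2 fold change of 0.10 (SE 0.20), and Ly6g, which defines mature neutrophils, had at most 1 count. Monocyte markers summed to 23.1 to 26.7 CPM in WT against 28.4 to 33.5 CPM in PYK2 KO without overlap, and of 8, 3 were tested, with 0 that passed, with 1 (Ly6c2) at an unadjusted p under 0.05. Ccr2, the CCL2 receptor gene of inflammatory monocytes, named after its values were seen, was too low to be tested, with 12, 7 and 4 counts in WT and 3, 6 and 1 in PYK2 KO. The part of these cells in the levels of Saa3, Slpi, F13a1 and Gdf3 was not tested.

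Megakaryocyte and platelet markers, the other known source of F13a1, summed to 653 to 863 CPM in WT against 651 to 669 CPM in PYK2 KO. That sum was nearly all Pf4, which macrophages also express, and the defining platelet genes Gp9, Gp1ba and Gp1bb had 0 counts in every library. Adipocytes, a known source of Saa3, had 0 counts for all 5 of their markers (Adipoq, Lep, Cfd, Plin1 and Retn), and all 6 erythroid markers had 0 counts. Fibroblast markers summed to at most 1.40 CPM, with Col3a1, Dcn, Lum and Pdgfra at 0. Dendritic cell, T and NK cell and mast cell markers summed to at most 1.02, 0.557 and 1.92 CPM in any library. Of the 5 B cell markers Cd79b alone was detected, at 19.2 to 20.6 CPM in WT against 13.7 to 23.1 CPM in PYK2 KO.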

How the data were processed

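RNA of BMDMs from 3 WT and 3 PYK2 KO mice was sequenced by bulk MARS-seq. The deposited table holds raw counts, whole numbers for each gene, which the authors obtained from their reads with UTAP. The submitters' processing notes name cutadapt, STAR and mm10. How molecular identifiers were collapsed is not given in the sources used here. Groups came from the genotype labels, and 0 columns were left unused. Counts were kept where edgeR's filterByExpr passed them (9815 genes), scaled by TMM and tested for genotype by the quasi-likelihood method of edgeR, with p-values adjusted over all tested genes by Benjamini-Hochberg (R 4.3.3, edgeR 4.0.16, limma 3.58.1, DESeq2 1.42.0), after the code was tested on simulated counts. Genes for likeness were ranked on log2 CPM with a prior count of 2.

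The 4 genes and all gene lists were chosen with earlier results of these data known. Named were the 4 genes, Ptk2b, the 3 genes most alike to each, and in each list the genes that passed and the first 3 tested, with every family member above 3 counts. Others were chosen after their values were seen. The labels give no separate origin beyond the library, so p-values measure the spread between these libraries. Intervals on counts cover counting error only. Positions are from GENCODE on GRCm38.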

Additional observations from a re-analysis of the deposited data

How the results depend on the processing

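The log2 fold changes of Saa3 (1.08 to 1.10), Slpi (0.64 to 0.65), F13a1 (0.64 to 0.65) and Gdf3 (0.98 to 0.99) kept their sign and moved by less than the spread between replicates under other scalings (RLE, library size, upper quartile), filters and tools (likelihood ratio test, DESeq2, limma voom) and with the first residual component as a covariate. With a library left out they were 1.03 to 1.14, 0.55 to 0.74, 0.62 to 0.67 and 0.79 to 1.12. No paired analysis was possible because no replicate number occurs in both genotypes (1, 5 and 6 against 2, 3 and 4).

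The 25 genes called became 159 with no filter (95 higher, 64 lower), 45 in the likelihood ratio test (25 higher) and 62 with the covariate (40 higher, 22 lower). They were 14 to 34 with a library left out (5 to 19 higher, 8 to 15 lower), with 15 without WT 5, 15 without PYK2 KO 2 and 14 without PYK2 KO 4, and 19 higher without WT 1. With no filter the lists gave 1 serum amyloid A receptor, 2 acute phase genes, 1 of their regulators, 1 WAP gene, 3 coagulation genes, 1 PPARG gene and 6 other secreted products. The likelihood ratio test gave 1 acute phase gene, 2 coagulation genes and 5 secreted products, and the covariate 1 receptor, 1 acute phase gene, 1 coagulation gene and 1 PPARG gene. With a library left out, acute phase genes, factor XIIIa substrates, secreted products and WAP genes each gave 0 to 1. The cause of these changes was not tested.

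Over 66 named genes and 984 values, 924 kept direction and call, 15 lost the call, 22 gained it and 23 changed sign. Tgm2 turned to 0.00013 with library size and 0.0016 with upper quartile factors. With a library left out, Chil3 ran from -0.062 to 0.36, Cst3 from -0.059 to 0.13, Gdf15 from -0.33 to 0.0058, Lcn2 from -0.27 to 0.011, Lefty1 from -0.19 to 0.40, Nfkb1 from -0.052 to 0.12, Pparg from -0.36 to 0.018, Scarb1 from -0.070 to 0.029, Skil from -0.28 to 0.056, Tgfb1 from -0.041 to 0.089, Tgm2 from -0.093 to 0.053, Tlr4 from -0.011 to 0.52 and Vim from -0.020 to 0.046. Among named genes that kept their sign, Cd36 ran from 0.45 to 1.21, Wfdc17 from 0.15 to 0.67, Acvr2b from 0.082 to 0.50, Ltbp3 from 0.047 to 0.27, Wfdc21 from -0.38 to -0.082, Cst7 from 0.21 to 0.55, Thbd from 0.12 to 0.32, Acvr1 from -0.23 to -0.098, Rela from -0.15 to -0.023, Rxra from -0.094 to -0.020, Rxrb from -0.17 to -0.0085, Tlr2 from 0.014 to 0.098 and Cstb from -0.084 to -0.012. Gdf3, with 28 to 67 counts a library, is the least precise of the 4 genes.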
